A study of Homo sapiens with 4 samples.

Results

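The transcripts of 10 cleavage and polyadenylation factor genes were described in RIP-seq libraries of MDA-MB-231, a human triple negative breast cancer cell line. All rows of the deposited transcript table that carried the gene name CPSF1, CPSF3, CPSF6, CPSF7, NUDT21, CSTF1, CSTF2, CSTF3, PCF11 or WDR33 were taken, with none left out, which gave 64 of 75165 listed transcripts and 10 of 20298 listed genes. RIP-seq sequences the RNA that comes down with an immunoprecipitated protein, beside RNA of the lysate it was taken from. There were 4 libraries. Of these, 2 came from RNA immunoprecipitated with anti-Flag antibody (YTHDC1 IP) and 2 from input RNA, each group with 2 biological replicates. Both groups came from cells that overexpressed Flag-tagged YTHDC1 from a lentiviral vector with a CMV promoter, transduced at a multiplicity of infection of 4 and put under 2 μg/ml puromycin 24 hours later for 4 days, so no library held the YTHDC1 level of unmodified cells. RNA and protein were crosslinked by UV light (120000 μJ/cm2, applied 3 times) before nuclei were isolated, and each IP used 5 μg of antibody on 500 μg of nuclear lysate protein. Input was taken from 50 μg of the same lysate, although the labels name it as total RNA. RNA was depleted of ribosomal RNA rather than selected for poly(A) tails. No library from control IgG is analysed here.

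The value used for each transcript is the authors' mean normalized count over all 4 libraries, IP and input together. This mean has no spread between replicates and cannot separate IP from input. Sequencing depth per library is not known from it. The comparison of IP with input, which asks which transcripts YTHDC1 binds, could therefore not be made from these values, and nothing below bears on binding. A mean normalized count also rises with the length of a transcript, and lengths were not used here, so levels are not compared between genes. Shares within a gene are shares of its counted reads and not of its RNA molecules. Reads that fit several isoforms were divided among them by an estimate, and the error of that division is not known for any transcript.

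Cleavage and polyadenylation give nearly all mRNAs their 3′ ends. CPSF recognises the AAUAAA signal and cuts the RNA, CstF binds U- and GU-rich sequence downstream of the cut, CFI binds UGUA elements upstream and guides the choice among alternative sites, and CFII links the reaction to RNA polymerase II termination. YTHDC1, a nuclear reader of N6-methyladenosine, is known to associate with the CFI protein CPSF6. Several of these factors are known to be controlled through the processing of their own pre-mRNAs, among them CSTF3 and PCF11, whose genes carry polyadenylation sites inside introns.

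The labelled cell line was checked against its markers. VIM, CD44 and EGFR, found in this mesenchymal-like line, were listed with summed mean normalized counts of 80785, 14306 and 22483. The hormone receptor genes ESR1 and PGR had no listed transcript, and the epithelial genes CDH1 and EPCAM summed to 10.0 and 78.3. ERBB2, fixed as a gene that should be low, had 15 listed transcripts summing to 4303. The immune gene PTPRC was listed at 3.81, and CD3E had no listed transcript. YTHDC1, the overexpressed gene, had 6 listed transcripts summing to 55488. Mean normalized counts in the whole table started at 2.72 and had a median of 44.2.

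In 8 of the 10 genes the transcript with the highest mean normalized count was annotated as protein-coding. The exceptions were CSTF1, whose counts lay mostly in a transcript annotated for nonsense-mediated decay, and NUDT21, whose leading transcript was annotated with a retained intron. Nonsense-mediated decay is the pathway that degrades RNAs with a premature stop codon, and a retained intron is one left in the RNA after splicing. Among all 11482 protein-coding genes with at least 2 listed transcripts, 13.1% were led by a transcript of another type, 6.04% by one annotated for nonsense-mediated decay and 3.24% by one with a retained intron. Of the 10075 of these genes with a summed mean normalized count of 100 or more, 11.8% were led by another type. Whether 2 of 10 members differs from these shares was not tested. The promoters of CSTF1 and NUDT21 are shown because these are the genes whose leading transcript was not annotated as protein-coding. Both sequences are from RefSeq (build GRCh38.p14), run 5′ to 3′ on the strand of the gene from 250 bases before its start to 50 bases after it, and carry in capitals the ETS motif CCGGAAG or its reverse complement, CTTCCGG. The CSTF1 promoter is the upstream one of 2 that RefSeq gives, and the other does not hold the ETS motif.
CSTF1, chr20:56392129-56392428, plus strand: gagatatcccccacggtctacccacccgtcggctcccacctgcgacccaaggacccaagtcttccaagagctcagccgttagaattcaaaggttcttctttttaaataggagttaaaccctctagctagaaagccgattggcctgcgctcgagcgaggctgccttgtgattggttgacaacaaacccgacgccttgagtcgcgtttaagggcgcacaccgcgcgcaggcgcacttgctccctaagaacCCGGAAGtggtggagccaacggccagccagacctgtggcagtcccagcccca
NUDT21, chr16:56451283-56451582, minus strand: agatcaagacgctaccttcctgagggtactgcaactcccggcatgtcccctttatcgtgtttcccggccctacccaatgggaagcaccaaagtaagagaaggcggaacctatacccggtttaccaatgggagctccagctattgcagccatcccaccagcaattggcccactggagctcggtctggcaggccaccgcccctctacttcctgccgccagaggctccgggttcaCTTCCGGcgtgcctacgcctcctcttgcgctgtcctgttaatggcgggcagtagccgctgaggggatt

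Across the 9 members with a promoter in the table, which has 10 promoters for them, the letters CCGGAAG stood on either strand in 6 promoters of 6 genes, CPSF3, CPSF7, CSTF1, CSTF2, CSTF3 and NUDT21. Of all 35116 promoters of the same length, 10.3% held them. The GC box GGGCGG was in 6 promoters of 6 genes, against 45.0% of all promoters, and the CCAAT box, CCAAT, in 6 promoters of 5 genes, against 34.6%. None of the 10 held TATAAA, the TATA box, against 11.5% of all promoters. The motifs were chosen after these promoters had been read, and the RIP-seq values do not bear on them.

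**Figure D1:**
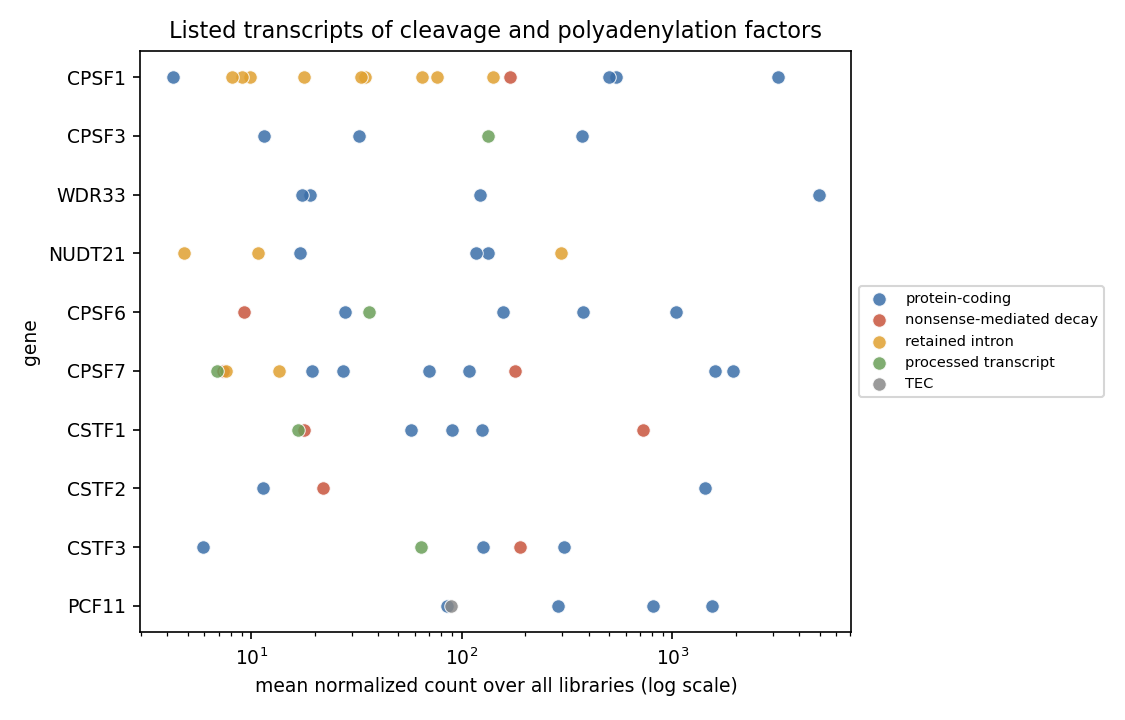
Mean normalized count over all libraries (log scale) of each of the 64 listed transcripts, 1 point per transcript, by gene and coloured by annotated type. The rightmost point is protein-coding in 8 genes, annotated for nonsense-mediated decay in CSTF1 (723) and with a retained intron in NUDT21 (295).

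The CPSF genes were each led by a protein-coding transcript, but differed in what lay beside it. WDR33, which contacts the AAUAAA signal, lies at chr2:127701027-127811171 on the minus strand and had 4 listed transcripts (ENSG00000136709.12). WDR33-201 (ENST00000322313.9) had a mean normalized count of 4979, or 96.9% of the gene's 5137. The other 3 transcripts, all protein-coding too, ranged from 17.4 to 121, so that WDR33-201 exceeded the next by 41.0-fold. Among 1639 other protein-coding genes with 4 listed transcripts, 97.9% had a lower share in their leading transcript. SFT2D3, a gene on the opposite strand whose 3746 bases lie wholly inside WDR33, was listed with 179. The paper names a stranded library kit, but whether reads were counted by strand is not given in the sources used here.

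CPSF3, the endonuclease that cuts the pre-mRNA, also had 4 listed transcripts (ENSG00000119203.14, chr2:9423654-9473101, plus strand) and a less one-sided make-up than WDR33. CPSF3-201 (ENST00000238112.8) stood at a mean normalized count of 371, which is 67.7% of the gene's 549. The second transcript, CPSF3-204 (ENST00000489403.1) at 133, was annotated as a processed transcript, one without an open reading frame, and took 24.3%. Protein-coding transcripts together held 75.7% of the CPSF3 counts. Among 1639 other protein-coding genes with 4 listed transcripts, the median leading share was 60.6% and the median protein-coding share 91.7%. Of these genes, 29.5% had a lower protein-coding share than CPSF3. The remaining protein-coding transcripts, CPSF3-202 and CPSF3-203, stood at 32.5 and 11.5.

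CPSF1, the large scaffold subunit of CPSF, had the most listed transcripts of the 10 genes, at 14 (ENSG00000071894.17, chr8:144393231-144409335), of which 9 were annotated with a retained intron. Its counts were nonetheless concentrated. CPSF1-212 (ENST00000616140.2) had a mean normalized count of 3186, or 66.5% of the gene's 4794. The protein-coding CPSF1-207 (ENST00000531727.5) and CPSF1-213 (ENST00000620219.4) followed at 538 and 502, with 11.2% and 10.5%. The 9 retained-intron transcripts ranged from 8.10 to 140.1, the highest being CPSF1-206, and summed to 8.22% of the gene. CPSF1-205, annotated for nonsense-mediated decay, stood at 170 (3.55%). Compared with 92 other protein-coding genes that also had 14 listed transcripts, whose median leading share was 45.3%, 87.0% had a lower leading share than CPSF1. The span of CPSF1 overlaps that of ADCK5 by 12 bases.

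The CFI genes contrasted NUDT21 with both of its partners. NUDT21, the small CFI subunit that reads UGUA, had 6 listed transcripts (ENSG00000167005.14, chr16:56429133-56451332, minus strand). NUDT21-205 (ENST00000567110.1), annotated with a retained intron, had a mean normalized count of 295, or 51.1% of the gene's 578. The protein-coding NUDT21-204 (ENST00000566340.5) and NUDT21-201 (ENST00000300291.10) were close to each other at 133 and 117, with 23.0% and 20.3%. With the other retained-intron transcripts, NUDT21-202 at 10.7 and NUDT21-203 at 4.79, this type took 53.7% of NUDT21 counts and protein-coding transcripts 46.3%. Of 1187 other protein-coding genes with 6 listed transcripts, 10.3% had a lower protein-coding share than NUDT21, and their median was 86.7%.

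CPSF6 and CPSF7 encode the alternative large CFI subunits, which bind NUDT21. Both were almost wholly protein-coding in their counts, at 97.3% and 94.6%. CPSF6 (ENSG00000111605.18, chr12:69239569-69274358, plus strand) had 6 listed transcripts summing to 1649. CPSF6-201 (ENST00000266679.8) stood at 1043 (63.3%), CPSF6-203 (ENST00000456847.7) at 377 (22.8%) and CPSF6-202 (ENST00000435070.7) at 156 (9.48%). Transcripts of CPSF6 that were not protein-coding were low, with CPSF6-206, a processed transcript, at 36.1 and CPSF6-208, annotated for nonsense-mediated decay, at 9.24.

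CPSF7 (ENSG00000149532.15, chr11:61402729-61429975, minus strand) had 11 listed transcripts summing to 3973 and was split between a pair of isoforms. CPSF7-202 (ENST00000394888.8) had a mean normalized count of 1939.8 and CPSF7-205 (ENST00000439958.7) one of 1594, which are 48.8% and 40.1% of the gene. The first exceeded the second by 1.22-fold, against a median of 2.08-fold in 263 other protein-coding genes with as many listed transcripts. No other CPSF7 transcript reached 10%. The next was CPSF7-224 at 179 (4.50%), annotated for nonsense-mediated decay, and the highest retained-intron transcript, CPSF7-218, stood at 13.6. The 1 processed transcript of CPSF7, CPSF7-213, was at 6.90.

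**Figure D2:**
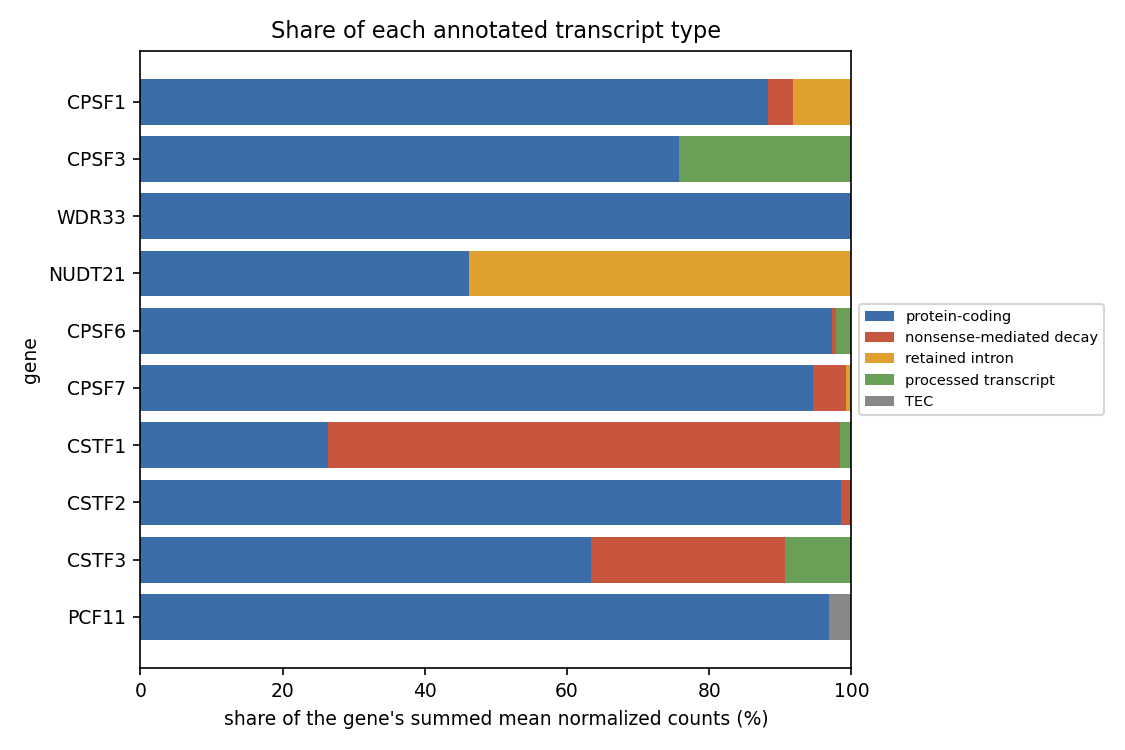
Share (%) of each gene's summed mean normalized counts in each annotated transcript type, 1 stacked bar per gene. The protein-coding part fills 100% of WDR33 and over 90% of CSTF2, CPSF6, PCF11 and CPSF7, but 46.3% of NUDT21 and 26.3% of CSTF1.

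The CstF genes ranged from 26.3% to 98.5% in protein-coding share. CSTF2, the subunit that binds GU-rich RNA, had 3 listed transcripts (ENSG00000101811.13, chrX:100820391-100841520, plus strand) and nearly all counts in CSTF2-201 (ENST00000372972.6). This transcript had a mean normalized count of 1430.2, or 97.7% of the gene. CSTF2-204, annotated for nonsense-mediated decay, stood at 22.0 and the protein-coding CSTF2-202 at 11.4, so that the leading transcript exceeded the second by 65.1-fold. Of 1901 other protein-coding genes with 3 listed transcripts, 96.8% had a lower leading share. CSTF2T, the autosomal gene of similar sequence that encodes a CstF subunit of the same kind, was listed with 2527 in 1 transcript, and reads that fit both genes could have been divided between them.

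CSTF1, the WD-repeat subunit of CstF, had 6 listed transcripts summing to 1029 (ENSG00000101138.12, chr20:56392379-56406362, plus strand). CSTF1-206 (ENST00000493039.5), annotated for nonsense-mediated decay, held 723 of these, or 70.3%. The protein-coding transcripts were CSTF1-202 (ENST00000415828.5) at 124, CSTF1-203 (ENST00000428552.1) at 89.6 and CSTF1-201 (ENST00000217109.9) at 57.1, and together they held 26.3%. CSTF1-206 thus exceeded the highest protein-coding transcript by 5.82-fold. A second transcript annotated for nonsense-mediated decay, CSTF1-205 at 17.8, brought that type to 72.0%, and the processed transcript CSTF1-208 added 16.8 (1.63%). Among 1187 other protein-coding genes with 6 listed transcripts, 4.21% had a lower protein-coding share. Of the same genes, 12.5% were led by a transcript that was not protein-coding.

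CSTF3, which bridges the other CstF subunits and contacts CPSF, had 5 listed transcripts summing to 689 (ENSG00000176102.13, chr11:33084584-33161480, minus strand) and counts spread over several types. CSTF3-201 (ENST00000323959.9) led at 305 (44.2%). It was followed by CSTF3-208 (ENST00000528865.5), annotated for nonsense-mediated decay, at 188 (27.4%), by the protein-coding CSTF3-206 (ENST00000524827.6) at 126 (18.2%) and by CSTF3-207, a processed transcript, at 64.1 (9.30%). The leading transcript exceeded the second by 1.62-fold. Of 1416 other protein-coding genes with 5 listed transcripts, 25.4% had a lower leading share and 22.3% a lower protein-coding share.

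PCF11, the CFII subunit that binds the C-terminal domain of RNA polymerase II, also had 5 listed transcripts, summing to 2814 (ENSG00000165494.11, chr11:83157131-83187451, plus strand). The protein-coding PCF11-201 (ENST00000298281.8), PCF11-203 (ENST00000530304.5) and PCF11-204 (ENST00000530660.5) had mean normalized counts of 1543, 811 and 286, or 54.8%, 28.8% and 10.2%. The protein-coding PCF11-206 at 85.3 and PCF11-207 at 89.2 made up the rest. PCF11-207 was the only listed member transcript of the type TEC, a GENCODE category for models that await experimental evidence. PCF11-AS1, a lncRNA named as antisense whose span overlaps PCF11 by 1931 bases, was listed with 10.5.

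**Figure D3:**
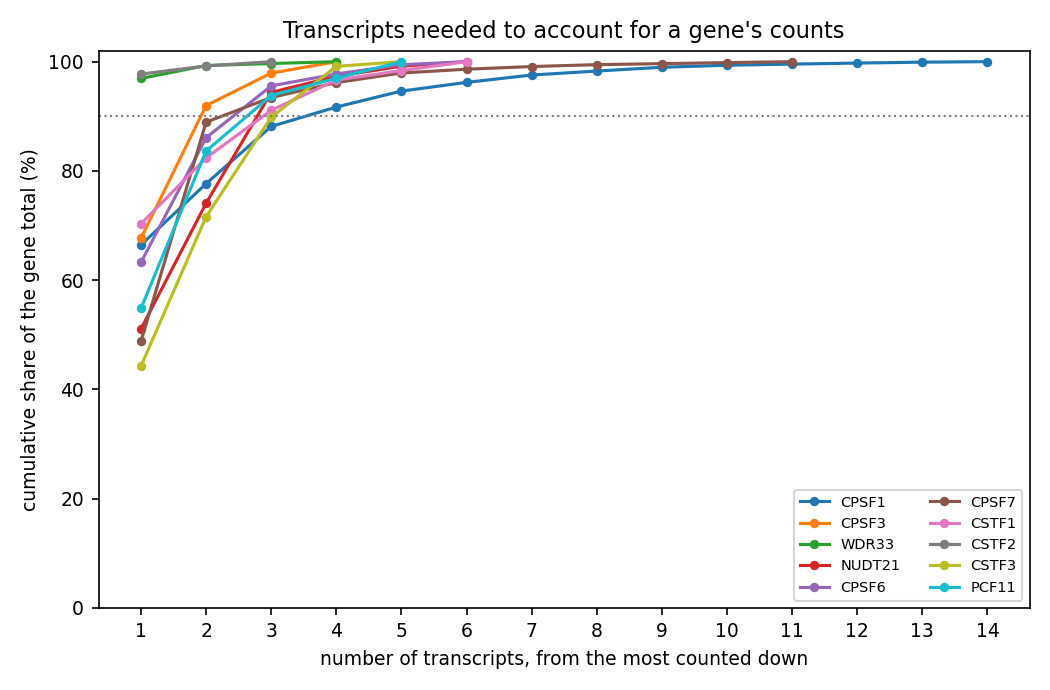
Cumulative share (%) of a gene's summed mean normalized counts against the number of transcripts, added from the most counted down, 1 line per gene, with a dotted line at 90%. WDR33 and CSTF2 pass 90% with 1 transcript, CPSF3 with 2, and CSTF3 and CPSF1 with 4.

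How evenly the counts were spread was summarised as the effective number of transcripts, which is 1 divided by the sum of the squared shares and equals the number of transcripts when all have the same share. It was 1.05 for CSTF2, 1.06 for WDR33, 1.92 for both CPSF3 and CSTF1, 2.14 for CPSF1, 2.16 for CPSF6, 2.48 for CPSF7, 2.53 for PCF11, 2.81 for NUDT21 and 3.20 for CSTF3. CPSF1, with 14 listed transcripts, had a lower effective number than NUDT21 with 6 or CSTF3 with 5. Among other protein-coding genes the median went the other way. It was 2.41 with 5 listed transcripts, 2.62 with 6 and 3.57 with 14. The leading pair of transcripts held from 71.6% of the counts in CSTF3 to 99.3% in WDR33. The order of the genes depended on the types counted, since with protein-coding transcripts alone the effective number of CSTF3 was 1.75, below those of CSTF1 (2.75), PCF11 (2.37), NUDT21 (2.25), CPSF7 (2.24) and CPSF6 (2.05).

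Of the 64 member transcripts, 36 were annotated as protein-coding (56.2%), 14 with a retained intron (21.9%), 8 for nonsense-mediated decay (12.5%), 5 as processed transcripts (7.81%) and 1 as TEC. The shares over all 65841 transcripts of protein-coding genes were 59.6%, 17.2%, 9.86% and 13.2% for the first 4 types in this order. The 14 retained-intron transcripts came from 3 genes, CPSF1, NUDT21 and CPSF7. Over all protein-coding genes, transcripts of this type came from 5363 genes, while 13621 genes had a listed protein-coding transcript. The median mean normalized count of the 14 was 15.7, against 123 for the 36 protein-coding ones. In its type, NUDT21-205 at 295 was followed by CPSF1-206 at 140.1. The 8 transcripts annotated for nonsense-mediated decay came from 6 genes and ranged from 7.34 to 723. Over all protein-coding genes, transcripts of this type came from 4227 genes, beside the 13621 with a listed protein-coding transcript. Those genes include ones with 1 listed transcript, while each member had at least 3. Whether 6 of 10 is usual for such genes was not tested. In all, 22 transcripts held at least 10% of their gene, 18 protein-coding and 4 of other types, namely CSTF1-206, NUDT21-205, CSTF3-208 and CPSF3-204. No such count over all genes is given here, so whether these numbers are usual is not known. A mean normalized count under 10 was found for 10 of the 64, against 17.2% of all listed transcripts.

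**Figure D4:**
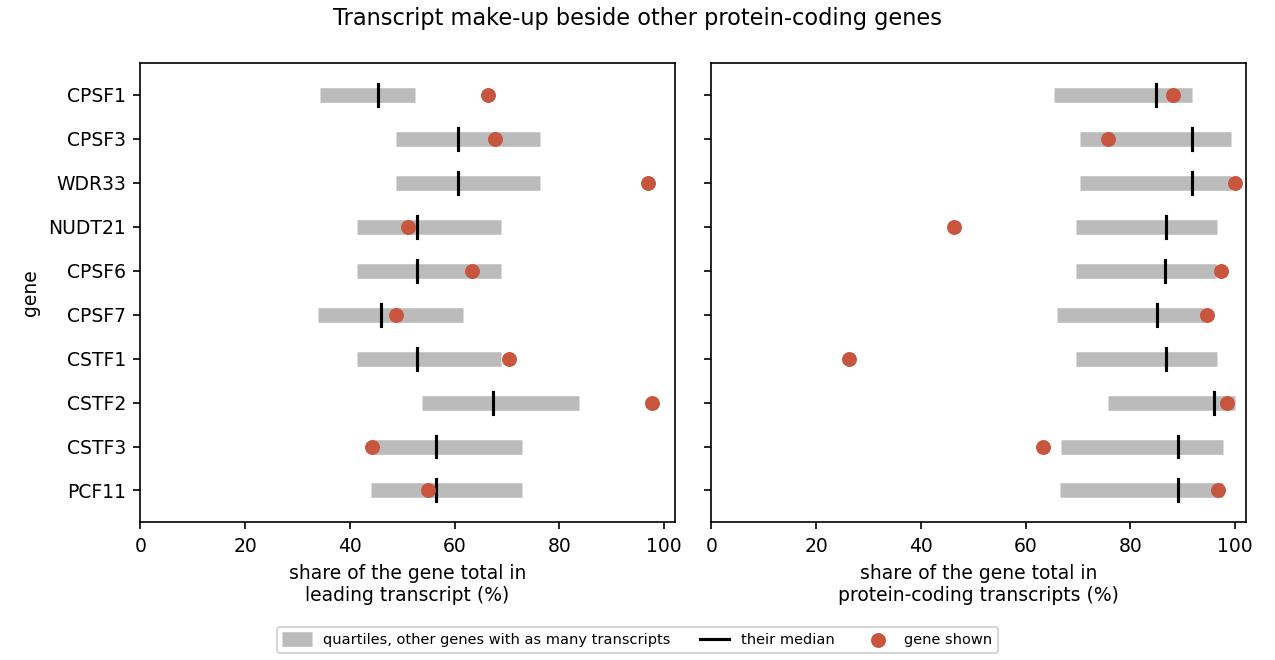
Share (%) of the gene total in the leading transcript (left) and in protein-coding transcripts (right) for each gene (red point), with the quartiles (grey bar) and the median (black line) of other protein-coding genes that have as many listed transcripts. The leading share lies to the right of the grey bar for CPSF1, WDR33, CSTF1 and CSTF2, and the protein-coding share lies to the left of it for CSTF1 (26.3%), NUDT21 (46.3%) and CSTF3 (63.3%) and past its right end for WDR33 (100%), CPSF6 (97.3%) and CPSF7 (94.6%).

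As a group, the members lay close to the table as a whole. Their median leading share was 64.9%, their median protein-coding share 91.4% and their median effective number 2.15. Over the 11482 protein-coding genes with at least 2 listed transcripts, the same medians were 59.7%, 90.7% and 2.16. A protein-coding share under 50% was found in 2 of the 10 genes, CSTF1 and NUDT21, and in 12.8% of the 11482. It was found in 11.5% of the 10075 of these with a summed mean normalized count of 100 or more, as all members had. Against genes with as many listed transcripts, the leading share was above the median in 7 members and below it in 3, PCF11, NUDT21 and CSTF3. These are descriptions of a pooled mean and were not tested.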

How the data were processed

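MDA-MB-231 RIP-seq reads were mapped by the authors with STAR (version 2.7.2b, per the submitters' processing notes) to the GENCODE v33 transcriptome (GRCh38) and quantified by RSEM 1.2.31 for each transcript. RUVSeq and then DESeq2 were run by the authors on a table from which low transcripts (under 5 reads in most samples) had been dropped. The deposited signal value used here is the authors' DESeq2 mean normalized count over all 4 libraries. Another 4 columns hold the authors' own comparison of the groups (log2 fold change with standard error, and p-values before and after adjustment) and were not used. Values per library are not analysed here, so depth is unknown, and the planned count test of IP against input was not run. The paper names a stranded library kit. The handling of strand in counting and the number of RUVSeq factors are not given in the sources used here.

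Shares, effective numbers and counts by annotated type were computed per gene identifier with python 3.11.15, numpy 2.4.6 and pandas 2.3.3, drawn with matplotlib 3.10.9, and tested on simulated data of known make-up. All 10 member identifiers were found in a table of gene names, and positions are from RefSeq (GRCh38.p14). Members and lists were chosen with earlier results of these data known. Every transcript with at least 10% of its gene, and the highest of each other type, was to be named. Other genes were compared by having as many listed transcripts. The result of 1 marker gene is not reported here.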

Additional observations from a re-analysis of the deposited data

How the results depend on the processing

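No paired analysis was possible because the values used are a mean over all libraries, and for the same reason DESeq2 in place of edgeR, no filter on counts and leaving out each library were not run. Leaving out transcripts under a mean normalized count of 10 moved none of 30 values for single genes by 1 percentage point or by 0.1 effective transcripts. This outcome was fixed beforehand. CPSF3, WDR33, CSTF1, CSTF2 and PCF11 had no transcript under 10. In the other genes such transcripts held too little to move a value that far, as with CSTF3-202 (0.86%) and NUDT21-203 (0.83%). With protein-coding transcripts alone, the median leading share became 67.4% and the median effective number 1.90, and the leading share of CSTF1 fell from 70.3% to 45.9% while that of CSTF3 rose from 44.2% to 69.8%. Leaving out transcripts under 100 gave a median protein-coding share of 94.2%, with 14.7% in CSTF1, and left 2 genes led by another type. Counting nonsense-mediated decay transcripts as coding gave a median of 97.3%, and moved CSTF1 from 26.3% to 98.4% and CSTF3 from 63.3% to 90.7%, by the construction of that setting. A limit of 5% or 20% of the gene in place of 10% gave 27 or 17 transcripts in place of 22.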

Other observations

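Among 13 other genes of the pathway, a list fixed beside the members, 11 were led by a protein-coding transcript and 2 by one annotated for nonsense-mediated decay. The latter were the poly(A) polymerase genes PAPOLA and PAPOLG. They are 16.7% of the 12 listed genes with at least 2 transcripts. Over all 11482 such protein-coding genes, 13.1% were led by another type and 6.04% by one annotated for nonsense-mediated decay. Whether these shares differ was not tested. PAPOLA, the main nuclear poly(A) polymerase, had 14 listed transcripts summing to 1717. Of these, PAPOLA-205, annotated for nonsense-mediated decay, had a mean normalized count of 917 (53.4%), and protein-coding transcripts held 36.0%. PAPOLG was listed low, summing to 94.5 over 4 transcripts, with PAPOLG-203, also annotated for nonsense-mediated decay, at 59.6 (63.0%) and a protein-coding share of 20.3%.

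CPSF4 is the CPSF subunit that reads AAUAAA with WDR33, and FIP1L1 the one that binds poly(A) polymerase. FIP1L1 had 8 listed transcripts, its leading transcript FIP1L1-201 held 25.3%, and its effective number of transcripts was 5.81. CPSF4 had 9 and an effective number of 3.73. Other genes with 8 or 9 listed transcripts are not summarised here, so whether these spreads are usual is not known. CPSF2, the inactive partner of CPSF3, was led by CPSF2-201 at 734 (63.7%), and CLP1, which joins PCF11 in CFII, by CLP1-205 at 589 (89.8%). SYMPK, the scaffold between CPSF and CstF, had 12 listed transcripts, and SYMPK-201 held 73.8%. RBBP6, SSU72, PABPN1, PPP1CA and PPP1CB were led by protein-coding transcripts with 62.4%, 84.1%, 49.8%, 87.9% and 41.6% of their counts. Over the 12 of these genes with at least 2 listed transcripts, the median leading share was 62.7% and the median protein-coding share 91.5%. The same medians over all 11482 such protein-coding genes were 59.7% and 90.7%. No difference between this list and the 10 members was tested.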
